A study of Mus musculus with 6 samples.

Results

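The genes that build classical MHC class I molecules and load them with peptide were examined in CD8+ T cells: H2-K1, H2-D1, B2m, Tap1, Tap2, Tapbp, Tapbpl, Erap1, Nlrc5 and Calr. They were picked by gene symbol, by a rule that uses no measured value but was drawn up with earlier results of these data known, and are 10 of the 78275 genes in the deposited table. RNA was sequenced from CD4-CD8+ TCRβhigh T cells of 3 WT animals and 3 BIT animals, each mouse giving 1 library. BIT mice are homozygous for an engineered allele in which the coding sequence of Psmb11 (β5t, a catalytic subunit of the thymoproteasome) was put into Psmb8 (β5i, a catalytic subunit of the immunoproteasome). The mice were on a C57BL/6 background, were 9 to 10 weeks old and are labelled male, and the allele is carried in every cell of the animal. The study made more than 1 BIT line and worked with a single line except where it says otherwise, and the labels name no line. WT mice carried the normal Psmb8 gene, and no other treatment or allele is given for either group. The labels give the tissue as lymph nodes in some fields and as lymph nodes and spleens in another, and the methods of the study give lymph nodes.

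An MHC class I molecule is a heavy chain (encoded by H2-K1 or H2-D1 in this strain) held together with β2-microglobulin (B2m) and a short peptide. Peptides cut by the proteasome are pumped into the endoplasmic reticulum by the Tap1-Tap2 transporter, trimmed by the aminopeptidase Erap1 and offered to the empty heavy chain in a complex with tapasin (Tapbp) and the chaperone calreticulin (Calr). The related protein encoded by Tapbpl edits peptides outside that complex, and Nlrc5 is a transcriptional coactivator of class I genes. Because proteasomes cut the peptides that these genes load, the comparison of WT with BIT asks whether RNA of the loading machinery differs between T cells that carry one catalytic subunit or the other.

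The promoters of H2-K1, H2-D1 and B2m are shown because RNA of the heavy-chain genes kept a nearly fixed ratio across the 6 libraries, as given further on. Each stretch is written 5′ to 3′ on the strand of the gene. Sequences are from the RefSeq promoter table, whose build is GRCm38.p6, and each was placed on GRCm39 by an exact match. They lie at chr17:34219328-34219437 on the minus strand for H2-K1, at chr17:35481894-35482026 on the plus strand for H2-D1 and at chr2:121978026-121978124 on the plus strand for B2m. The H2-K1 stretch is upstream of the annotated gene, whereas those of H2-D1 and B2m fall within the gene as drawn in Gencode M39, whose starts lie further upstream than those of RefSeq. Capitals mark 4 sets of letters: GGGNNTTCC (named kB here), AANNGAAA (IRF), TGACG (X2) and ATTGG (Y), each on either strand.
H2-K1: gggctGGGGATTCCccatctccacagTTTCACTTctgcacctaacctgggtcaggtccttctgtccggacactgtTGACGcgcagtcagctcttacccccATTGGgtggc
H2-D1: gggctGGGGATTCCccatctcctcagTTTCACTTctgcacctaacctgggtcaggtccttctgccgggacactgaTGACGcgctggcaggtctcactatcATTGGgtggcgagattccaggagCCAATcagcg
B2m: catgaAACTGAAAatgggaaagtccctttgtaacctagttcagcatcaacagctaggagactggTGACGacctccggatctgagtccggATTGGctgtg

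In both heavy-chain promoters the kB letters came first, the IRF letters began 21 bases later on the opposite strand, and X2 began 49 bases after IRF. B2m had no kB match in its window, its IRF letters were on the gene's own strand, and X2 followed at 59 bases. X2 and Y were spaced by 25 bases in H2-K1, H2-D1 and B2m alike. That spacing was found in 26 of 27025 promoter windows of the same length (0.0962%), which ran from 250 bases before to 50 bases after the start of each gene. Of the members, 7 matched a window (not Tap2, Tapbpl and Nlrc5), and 3 of these 7 had X2 and Y at that spacing. IRF letters were in 5 of 7 members against 24.2% of all windows, kB in 2 of 7 against 5.72%, X2 in 4 of 7 against 21.0% and Y in 6 of 7 against 37.9%. All 4 sets of letters were in H2-K1 and H2-D1 and in 0.137% of windows. The letters, windows and spacing were settled over several scans with these promoters in view, so the counts describe the sequences and test nothing.

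The coding sequences of H2-K1 and H2-D1 were identical at 985 of 1077 aligned bases (91.5%), which bears on how reads are divided between them. The longest stretch they share, 91 bases, is in the 4th coding exon of both genes, at chr17:34216317-34216407 (minus strand) in H2-K1 and chr17:35484887-35484977 (plus strand) in H2-D1. It covers positions 738 to 828 of the H2-K1 coding sequence and 747 to 837 of that of H2-D1.
Shared stretch: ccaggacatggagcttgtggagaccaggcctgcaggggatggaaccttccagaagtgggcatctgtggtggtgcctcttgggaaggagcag
A read of 100 bases is longer than this stretch. Of the 100-base windows along the H2-K1 transcript, 0% matched a transcript of another gene, and for H2-D1 4.61% did, most of them in H2-Q1. The estimated counts of H2-K1 and H2-D1 were nevertheless not whole in all 6 libraries, so some of their reads were divided between genes, and the H2-D1 values in particular carry that uncertainty.

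The libraries held 37467678 to 52922675 estimated counts. Psmb8 and Psmb11 matched the genotype labels, with 10790, 10345 and 8024 counts of Psmb8 in WT against 73, 59 and 60 in BIT, and 0 counts of Psmb11 in every WT library against 1926, 1754 and 1226 in BIT. The library labelled WT replicate 3 went against its sex label, with Xist at 66626 counts and each of 4 Y-linked genes at 0. BIT replicate 3 had 125 Xist counts beside 8949 Y-linked counts, and replicates 1 and 2 of both genotypes had 2 to 9 Xist counts. Fitted changes of the members without WT replicate 3 are given further on. On the first principal component (34.4% of the variance) replicate 3 of both genotypes stood apart, with scores of 54.57 for WT and 28.6 for BIT against -36.49 to -3.31 for the others, and the labels name no batch. Summed levels of T cell markers were 2565.5 to 2801.7 CPM (counts relative to the summed counts of that library) in WT and 2658.6 to 2888.7 CPM in BIT, and no T cell or CD8 marker was at 0 in any library. Markers of B cells summed to 28.5 to 37.3 CPM in WT and 22.9 to 30.0 CPM in BIT, and myeloid markers to 11.6 to 19.0 CPM and 8.23 to 12.1 CPM, with all of them detected. Dendritic cell markers summed to 2.46 to 7.49 CPM and 2.19 to 4.8 CPM, Siglech being the 1 of 5 at 0 in the BIT libraries. Erythroid markers summed to 35.1 CPM in BIT replicate 2 and to 1.28 to 10.7 CPM in the other 5 libraries. In CPM, BIT replicate 2 was the highest library for H2-K1, H2-D1, Tap2, Tapbp, Tapbpl and Calr and the lowest for B2m. The part of these marker RNAs in the results below was not tested.

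The 10 members together took 0.723% to 0.808% of the counts of a library. Most of this was B2m, H2-D1 and H2-K1, with 0.302%, 0.137% and 0.129% of WT counts, and the least was Tapbpl, with 0.00846%. Levels of different genes are compared here as CPM per kb of annotated exon. B2m was highest, with 1427.6 ± 60.9 CPM per kb in WT (SD, n = 3), followed by H2-D1 with 462.2 ± 41.3 and H2-K1 with 408.6 ± 43.6. Calr had 134.7 ± 7.75, Tapbp 84.0 ± 4.9 and Tap2 36.0 ± 3.41 CPM per kb. This order of the 6 upper genes was the same in each of the 6 libraries. The WT ranges of H2-D1 (427.7 to 508.0) and H2-K1 (368.4 to 454.9) overlapped, and with the longest transcript as the length H2-K1 (694.5) was above H2-D1 (648.7). The remaining genes, Erap1, Tap1, Tapbpl and Nlrc5, had 27.5 ± 1.17, 26.9 ± 2.31, 26.3 ± 1.45 and 24.3 ± 3.79 CPM per kb of exon in WT. By this length they differed by no more than their spread and changed places between libraries. With the longest transcript as the length, Tap1 (41.2) and Erap1 (39.2) were above Nlrc5 (27.3) and Tapbpl (26.3) in WT.

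None of the 10 members was called changed between BIT and WT at a Benjamini-Hochberg adjusted p below 0.05 in the limma-voom fit with quantile normalization, against 0.137% of the 16105 genes tested (22 genes, 13 higher and 9 lower). At an unadjusted p below 0.05 there was 1 member, Tapbp, against 8.57% of genes. Without WT replicate 3 there were 3 members (H2-K1, H2-D1 and Tapbp), against 1930 of 16502 genes. At an adjusted p below 0.05, DESeq2 called 1 member, Tapbp, and 125 of the 16105 genes. With edgeR 0 members and 14 of the 16105 genes were called. All 10 members passed the filter on low counts. Fitted changes of the members ran from -0.04 to 0.38 on the log2 scale, with a median of 0.13, beside a median of 0.0118 over all genes tested. The median of the members was 0.115 without WT replicate 3, 0.0547 without BIT replicate 1, 0.0718 without WT replicate 2 and 0.0756 without BIT replicate 2. Of the 10, 8 were above 0 (6 without BIT replicate 1), against 52.3% of all genes, but these include B2m, whose sign turned with the scaling, and 9 were within 0.2 of 0 in either direction, against 60.2% of all genes. The median standard error was 0.0949 for the members and 0.175 for all genes, whose counts are mostly lower. In 2 members, Tapbp and Erap1, every BIT library was above every WT library, which held for 7.38% of genes. In these bulk samples, fewer cells of a type and less RNA per cell cannot be told apart.

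**Figure D1:**
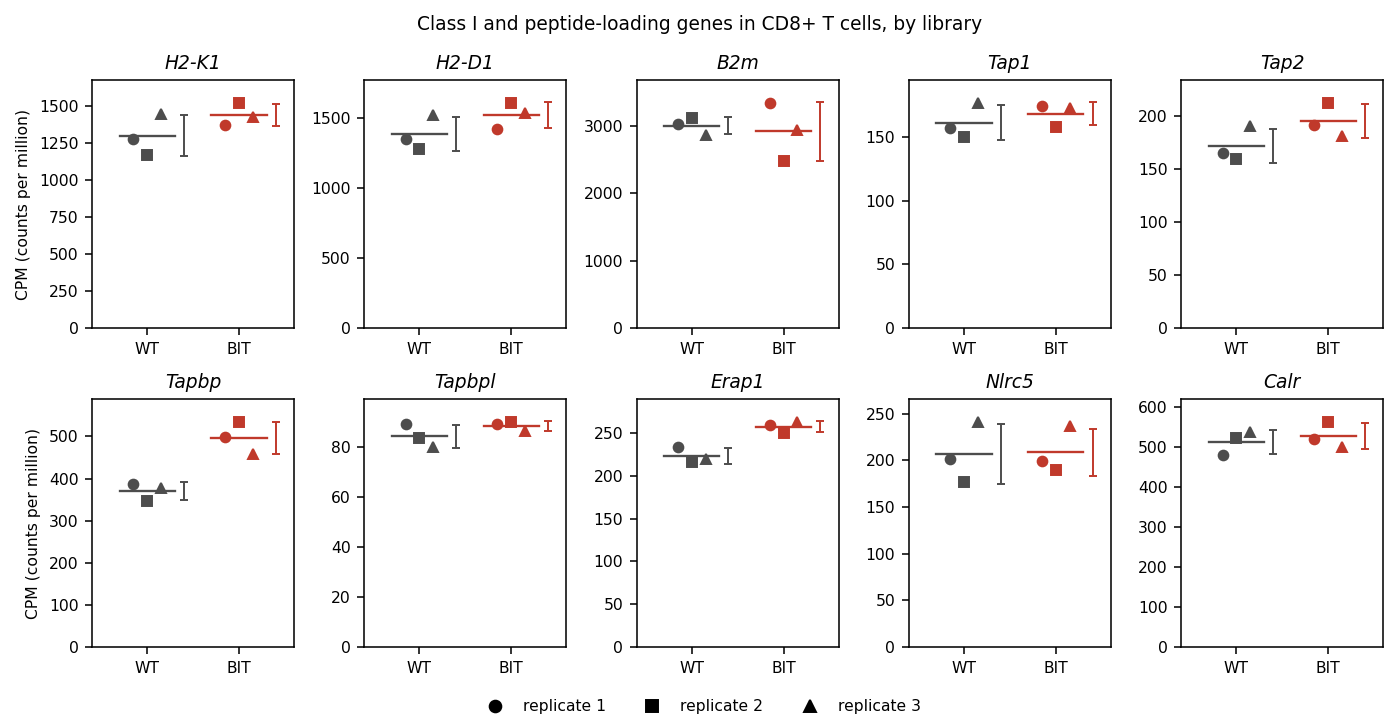
Level of each member in CPM (vertical axis, from 0) in the 3 WT (grey) and 3 BIT (red) libraries; symbols mark replicate numbers, horizontal lines the group mean and side bars 1 SD. Only in the panels of Tapbp and Erap1 do the points of the genotypes not overlap.

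Heavy chains and β2-microglobulin came first in abundance. H2-K1 (chromosome 17, 34214987 to 34219321), the heavy chain of H-2K, had 1282.3, 1173.3 and 1448.9 CPM in WT replicates 1, 2 and 3 and 1376.4, 1524.5 and 1426.2 CPM in BIT replicates 1, 2 and 3. H2-D1 (chromosome 17, 35481691 to 35486475), the heavy chain of H-2D, had 1349.2, 1279.8 and 1520.0 CPM in WT and 1422.0, 1606.5 and 1530.5 CPM in BIT. For both genes WT replicate 2 was the lowest library and BIT replicate 2 the highest, and WT replicate 3 lay within the BIT range, so the genotypes overlapped. The fitted change was 0.14 on the log2 scale for H2-K1 (SE 0.118, 95% interval -0.13 to 0.41, limma-voom adjusted p = 0.761) and 0.14 for H2-D1 (SE 0.113, interval -0.12 to 0.40, adjusted p = 0.752). These intervals allow folds from 0.916 to 1.33 for H2-K1 and from 0.922 to 1.32 for H2-D1. Without WT replicate 3 the fitted changes were 0.26 and 0.25, past an unadjusted p of 0.05 for both but with adjusted p of 0.371 and 0.406. They were 0.06 and 0.08 without WT replicate 2, and 0.09 and 0.10 without BIT replicate 2. Within replicate 3 alone, BIT minus WT was -0.11 for H2-K1 and -0.03 for H2-D1, and between the means of replicates 1 and 2 it was 0.27 and 0.22.

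The heavy-chain genes kept step with each other. The ratio of H2-D1 to H2-K1 counts was 1.05, 1.09 and 1.05 in WT and 1.03, 1.05 and 1.07 in BIT, a range narrower than that of either gene's level. Its means were 1.06 ± 0.0232 and 1.05 ± 0.02 (SD, n = 3 each, two-sided exact permutation p = 0.7, 0.7 after adjustment over 6 ratios). This ratio uses counts that RSEM divided in part between similar genes.

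B2m (chromosome 2, 121977957 to 121983594), the shared light chain, had 3024.5, 3124.7 and 2870.3 CPM in WT and 3346.8, 2480.4 and 2938.0 CPM in BIT. The highest and the lowest of the 6 libraries were both BIT, and the SD was 128.2 CPM in WT and 433.5 CPM in BIT. The fitted change was 0.14 with quantile normalization (SE 0.12, interval -0.13 to 0.41, limma-voom adjusted p = 0.766), but -0.06 with TMM normalization, -0.05 with edgeR and -0.04 with DESeq2, so no direction is given for B2m. BIT replicate 1, the library with the most B2m, also had the highest summed level of 15 interferon-inducible genes, 1695.0 CPM against 1092.6 to 1405.6 CPM in the others, and the part of this in the B2m value was not tested. The ratio of H2-K1 plus H2-D1 to B2m was 0.87, 0.785 and 1.03 in WT and 0.836, 1.26 and 1.01 in BIT, so the light chain did not keep step with the heavy chains from library to library. Its means were 0.897 ± 0.127 in WT and 1.03 ± 0.215 in BIT (SD, n = 3 each), and the genotypes overlapped (exact permutation p = 0.5, adjusted p = 0.6).

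Transporter genes flank the edited gene. Tap1 (chromosome 17, 34405996 to 34416199) ends 491 bases before the start of Psmb8, and Tap2 (34422501 to 34435829) starts 2073 bases after its end. Tap1 had 157.1, 150.0 and 176.8 CPM in WT and 174.2, 157.8 and 172.6 CPM in BIT, with full overlap of the genotypes. Its fitted change was 0.01 (SE 0.0823, interval -0.18 to 0.19, limma-voom adjusted p = 0.988), which allows folds from 0.882 to 1.14. Tap2 had 165.1, 159.3 and 189.9 CPM in WT and 191.5, 212.2 and 181.2 CPM in BIT, where BIT replicate 2 was the highest and BIT replicate 3 was below WT replicate 3. Its fitted change was 0.12 (SE 0.0959, interval -0.10 to 0.34, adjusted p = 0.748). Neither gene passed the test, whereas Psmb8 between them fell by 7.0 on the log2 scale.

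Tap2 and Tap1 encode the partners of a heterodimer. Their counts were close to equal, but their levels per kb of annotated exon in WT were 36.0 for Tap2 and 26.9 for Tap1. With the longest transcript as the length these were 43.1 and 41.2. The ratio of Tap2 to Tap1 counts was 1.05, 1.06 and 1.07 in WT and 1.1, 1.34 and 1.05 in BIT, so BIT replicate 2 stood above the other 5 libraries. The genotypes overlapped (1.06 ± 0.0115 against 1.16 ± 0.158, SD, n = 3 each, exact permutation p = 0.4, adjusted p = 0.6). In WT replicates 1 and 2 the counts of Tap1 and Tap2 were fractional while their sums, 17053 and 15642, were whole to within 0.005, as when reads are divided between those genes. The annotated span of Tap1 also overlaps by 743 bases that of Psmb9, the gene of the β1i proteasome subunit, on the opposite strand. The ratio of Tap1 to Psmb9 was 2.26, 2.02 and 2.48 in WT and 2.42, 2.3 and 2.7 in BIT, again with overlap (exact permutation p = 0.4, adjusted p = 0.6).

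Tapasin RNA showed the largest fitted change of the 10 members. Tapbp (chromosome 17, 34134873 to 34148267) bridges the empty heavy chain to the transporter. It had 387.7, 346.2 and 377.5 CPM in WT and 499.0, 534.3 and 458.5 CPM in BIT, with means of 370.5 ± 21.6 and 497.3 ± 37.9 CPM (SD, n = 3 each). All 3 BIT libraries were above all 3 WT libraries, and the lowest BIT library was above the highest WT library by more than either SD. The fitted change was 0.38 (SE 0.088, interval 0.18 to 0.58), a fold of 1.3, and ranked 96th of 16105 genes by p (unadjusted p = 0.00203). After adjustment over all genes it did not pass (limma-voom adjusted p = 0.341), and the two-sided exact permutation p was 0.1, the smallest that 3 mice against 3 allow. DESeq2 gave 0.43 with an adjusted p of 0.0431, whereas the other tools, filters and library subsets gave adjusted p between 0.0746 and 0.999.

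The size of the Tapbp difference changed little when libraries were left out. With each library left out in turn the fitted change was between 0.33 and 0.46, and without WT replicate 3 it was 0.37. It was 0.45 between the means of replicates 1 and 2 and 0.24 within replicate 3, where there is 1 library per genotype and no test. The annotated span of Tapbp, introns included, overlaps that of Zbtb22 by 3422 bases on the same strand. Zbtb22 had 1092 to 1620 counts per library against 15078 to 22476 for Tapbp, and its own fitted change was 0.09 (limma-voom adjusted p = 0.857), and the part of shared reads in the Tapbp value was not tested. Of the 100-base windows of the Tapbp transcript, 0.104% matched another gene, which was D330050I16Rik and not Zbtb22.

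**Figure D2:**
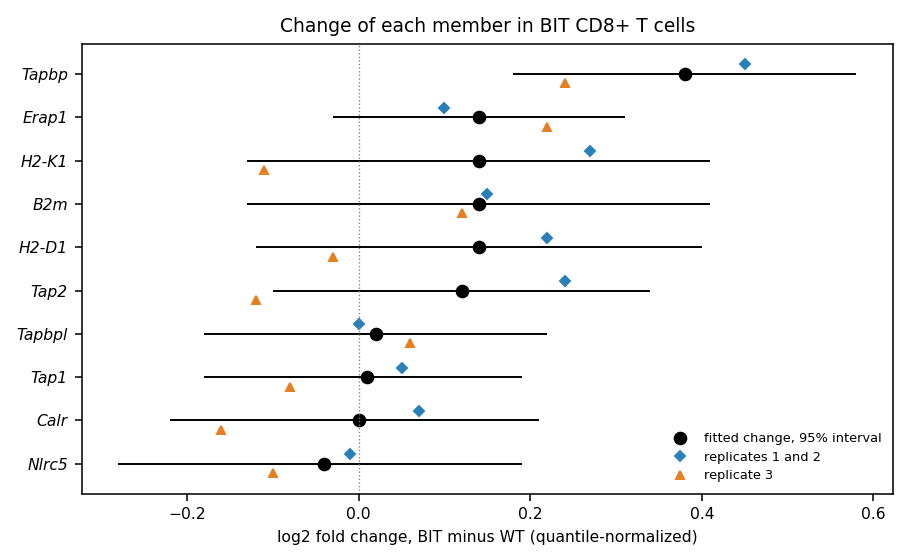
Fitted log2 fold change of each member, BIT minus WT (horizontal axis), with its 95% interval from limma-voom (black), beside the difference between the means of replicates 1 and 2 (blue diamonds) and within replicate 3 (orange triangles). Tapbp at 0.38 is the only member whose interval, 0.18 to 0.58, lies off 0; H2-K1, H2-D1, Tap2, Tap1 and Calr have points on either side of 0.

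The tapasin relative had a fitted change near 0. Tapbpl (chromosome 6, 125200373 to 125208994), a peptide editor that works outside the loading complex, had 89.2, 83.5 and 80.0 CPM in WT and 89.1, 90.0 and 86.2 CPM in BIT. The genotypes overlapped, and the fitted change was 0.02 (SE 0.0887, interval -0.18 to 0.22, limma-voom adjusted p = 0.963). The ratio of Tapbpl to Tapbp, which does not depend on normalization, was 0.23, 0.241 and 0.212 in WT and 0.179, 0.168 and 0.188 in BIT. It was lower in all 3 BIT libraries than in any WT library (0.228 ± 0.0149 against 0.178 ± 0.00978, SD, n = 3 each, a fold of 0.784). The exact permutation p was 0.1, the smallest possible here, and 0.3 after adjustment over 6 ratios. This ratio uses the same Tapbp counts as the fitted change of Tapbp, so it is not a separate line of evidence. Tapbpl lies entirely within Vamp1 on the opposite strand, which had 707 to 1108 counts per library, and the strand setting of the counting is not given in the sources used here.

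Trimming and chaperone genes had fitted changes of 0.14 or less. Erap1 (chromosome 13, 74787687 to 74841320), which trims peptides to the length that class I molecules hold, had 233.6, 215.9 and 218.9 CPM in WT and 258.6, 249.6 and 262.5 CPM in BIT. Every BIT library was above every WT library, yet the fitted change was 0.14 (SE 0.0759, interval -0.03 to 0.31, unadjusted p = 0.104, limma-voom adjusted p = 0.654). Erap1 overlaps 835 bases of Cast on the opposite strand. Calr (chromosome 8, 85567946 to 85573667), the calreticulin gene, had 480.6, 522.3 and 537.7 CPM in WT and 520.4, 562.9 and 499.3 CPM in BIT, with ranges that overlapped in part. Its fitted fold was 0.997 (interval 0.86 to 1.16, limma-voom adjusted p = 0.992).

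Calnexin (Canx), the membrane-bound relative of calreticulin that holds the heavy chain before B2m joins, was used as the partner of Calr in a ratio. The ratio of Calr to Canx was 1.53, 1.72 and 1.61 in WT and 1.51, 1.52 and 1.47 in BIT. The BIT libraries were below the WT libraries, and the means were 1.62 ± 0.0937 and 1.5 ± 0.0256 (SD, n = 3 each, exact permutation p = 0.1, adjusted p = 0.3). With each library left out in turn, the log2 difference was between -0.15 and -0.06.

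**Figure D3:**
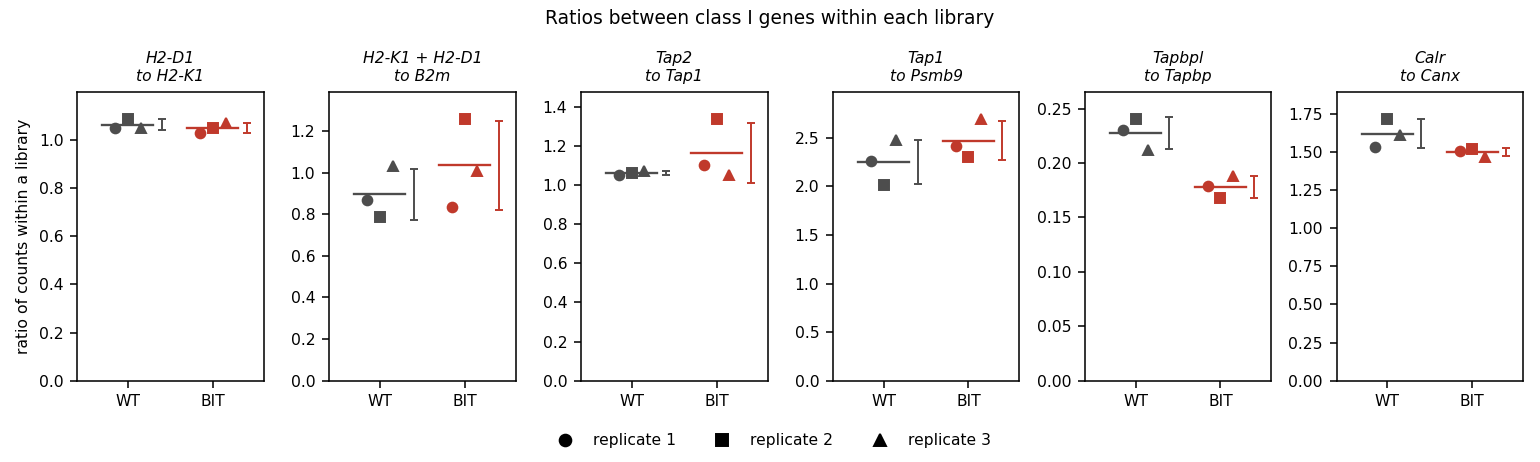
Ratios of estimated counts within each library (vertical axes, from 0) for the 6 pairs compared; symbols mark replicate numbers, lines the mean and side bars 1 SD. H2-D1 to H2-K1 stays between 1.03 and 1.09, H2-K1 plus H2-D1 to B2m runs from 0.785 to 1.26, and the Tapbpl to Tapbp ratios of BIT libraries (0.168 to 0.188) are below those of WT (0.212 to 0.241).

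The coactivator Nlrc5 (chromosome 8, 95160984 to 95253900) had 201.4, 177.2 and 241.0 CPM in WT and 199.3, 189.5 and 237.2 CPM in BIT. Replicate 3 was highest and replicate 2 lowest in both genotypes, and without WT replicate 3 the fitted change was 0.05. With all libraries it was -0.04 (SE 0.103, interval -0.28 to 0.19, limma-voom adjusted p = 0.923), which allows folds from 0.825 to 1.14. Its sign also turned with TMM normalization, edgeR and DESeq2, which gave 0.01, 0.01 and 0.02.

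**Figure D4:**
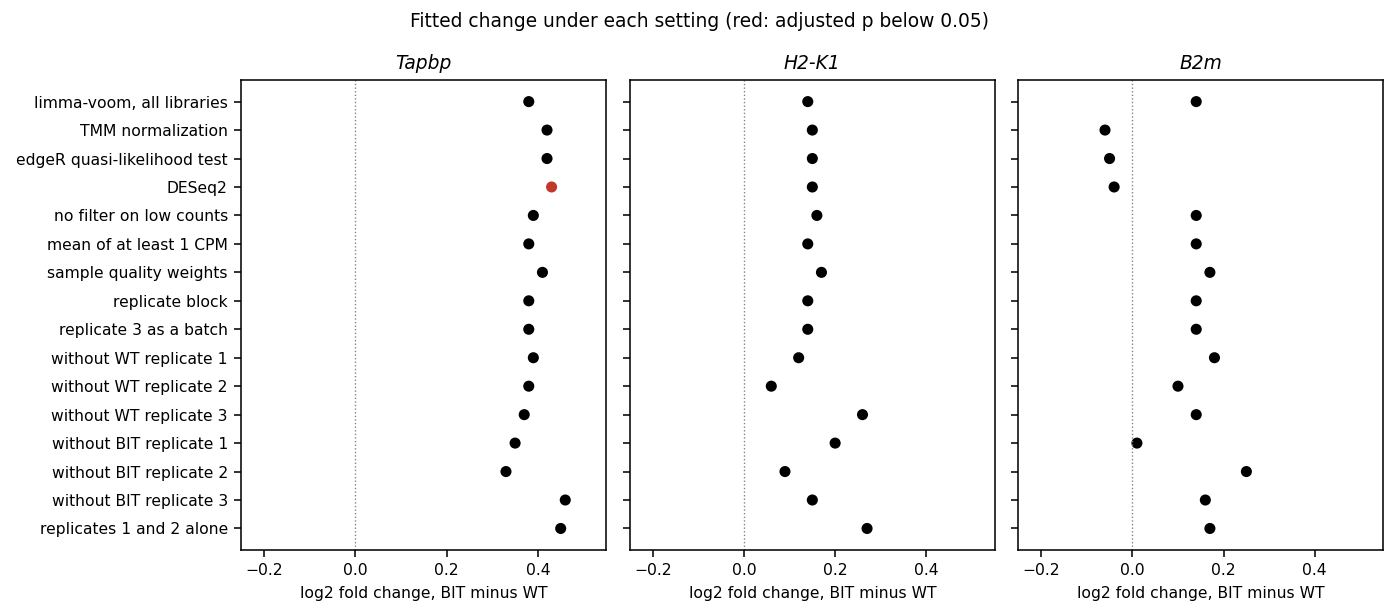
Fitted log2 fold change, BIT minus WT (horizontal axes), of Tapbp, H2-K1 and B2m under each tool, filter and subset of libraries (rows); red marks an adjusted p below 0.05. Tapbp stays between 0.33 and 0.46 and is red only with DESeq2, H2-K1 runs from 0.06 to 0.27, and B2m lies below 0 with TMM normalization, edgeR and DESeq2.

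Position next to the edited gene was examined because H2-K1 and Tapbp lie 197.4 kb and 268.4 kb before Psmb8 and H2-D1 lies 1061.3 kb after it, whereas B2m, Tapbpl, Erap1, Nlrc5 and Calr are on other chromosomes. Of 27 protein-coding genes within 250 kb of Psmb8, 23 were tested, none was called by limma-voom at an adjusted p below 0.05, and 6 had an unadjusted p below 0.05, against 8.57% of all genes tested. DESeq2 called 3 of the 23, namely H2-Oa, H2-Aa and H2-Ab1, against 125 of all 16105 genes tested. With edgeR 0 of the 23 were called, against 14 of the 16105. The 3 members among the 23 (H2-K1, Tap1 and Tap2) had fitted changes of 0.14, 0.01 and 0.12. The 6 were H2-Oa, H2-DMb1, H2-Ob, H2-Ab1, H2-Aa and H2-Eb1, class II genes with fitted changes of -0.64, -0.88, -0.36, -0.73, -0.88 and -0.63, and none of them is a member. Over the 23 genes the median was -0.15 and the range -0.88 to 0.18, so H2-K1, Tap1 and Tap2 lay in the upper part of the range. Tapbp, 268.4 kb from Psmb8, lay outside the 250 kb window and is not among the 23, and its fitted change was 0.38. Every B cell and myeloid marker also had a fitted change below 0, from -0.83 to -0.01, none of them called by limma-voom. Of the dendritic cell markers, Xcr1, Clec9a and Flt3 were at -0.96, -0.77 and -0.07, and Zbtb46 was at 0.15. Siglech, at 0 in BIT, was not tested. The part of these marker RNAs in the class II values was not tested.

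**Figure D5:**
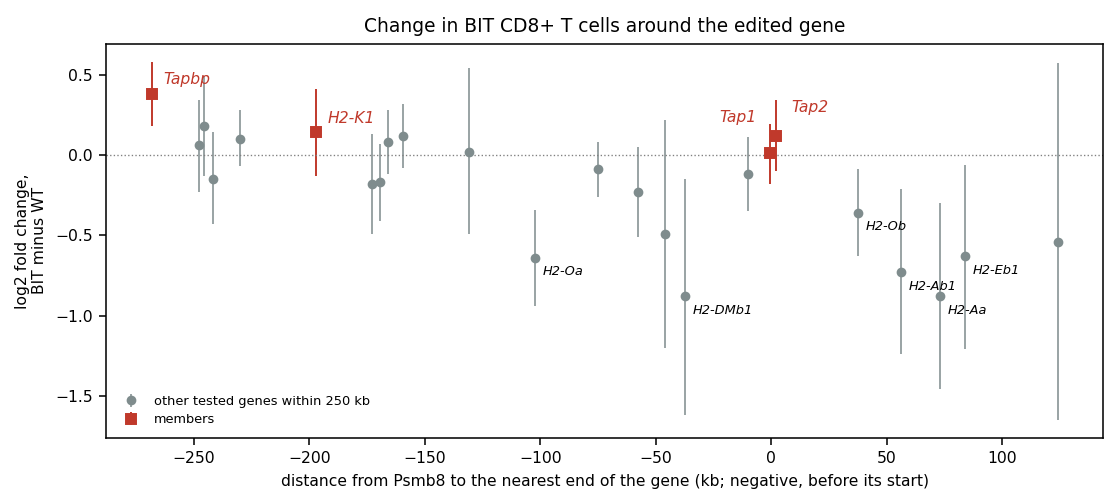
Fitted log2 fold change, BIT minus WT, with its 95% interval (vertical axis) against the distance from Psmb8 in kb (horizontal axis, negative before its start) for the members (red squares) and the other tested protein-coding genes within 250 kb (grey). H2-D1, 1061.3 kb after Psmb8, is not drawn; Tap1 and Tap2 beside the edited gene lie at 0.01 and 0.12, and the named grey genes are those with an unadjusted p below 0.05.

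Genes that work with the members were read from 5 lists of 54 genes in all, and 0 of them were called by limma-voom at an adjusted p below 0.05. At an unadjusted p below 0.05 there were 3, all higher in BIT, against 8.57% of all genes tested. Fitted changes were above 0 in 36 of the 54, against 52.3% of all genes, with a median of 0.0569 beside 0.0118. Chaperones and sugar-trimming enzymes of the endoplasmic reticulum held 2 of the 3, Mogs and Ganab. Mogs, encoding glucosidase I, had a fitted change of 0.28 (adjusted p = 0.537), and Ganab, the catalytic subunit of glucosidase II, of 0.17 (adjusted p = 0.562). Hsp90b1, the chaperone Grp94, followed with 0.14 (adjusted p = 0.744). Prkcsh and Uggt1, of the same list, had 0.04 and 0.05 (limma-voom adjusted p = 0.927 and 0.884). The median over these 10 genes was 0.0687, and 8 were above 0.

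Among 8 genes of export and disposal from the endoplasmic reticulum, the median was 0.0475 and Sel1l, a part of the ubiquitin ligase complex that removes misfolded proteins, had the smallest p (fitted change 0.19, limma-voom adjusted p = 0.576). Vcp, which extracts such proteins, had 0.16, and Derl1, a channel component, -0.10. The 7 other peptidases had a median of 0.0342, none with an unadjusted p below 0.05, and Lnpep, Nrdc and Npepps, the smallest in p, had 0.17, -0.08 and 0.07. The 14 transcription factors of class I genes had a median of 0.0471, with Rela, Creb1 and Nfyc at 0.15, 0.15 and -0.21 and none with an unadjusted p below 0.05. Irf1, an interferon-induced activator of class I promoters, had 0.12 (adjusted p = 0.773). The 15 interferon-inducible genes had a median of 0.0963 and a range of -0.15 to 0.49, with Gbp2, Psmb9 and Gbp4 at 0.26, -0.12 and -0.15.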

How the data were processed

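CD4-CD8+ TCRβhigh T cells of 3 WT and 3 BIT mice were profiled by stranded, ribosomal RNA-depleted sequencing with paired reads of 100 bases. The authors deposited estimated counts for each gene, from reads trimmed by cutadapt 1.18, aligned by STAR 2.7.0f to GRCm39 and counted by RSEM 1.3.1 on Gencode M38, versions being those of the submitters' processing notes. RSEM divides a read between genes it matches. The members, gene lists and tests were chosen with earlier results of these data known. Counts were rounded, and 16105 genes kept by filterByExpr (edgeR 4.0.16) were fitted with limma 3.58.1 (voom, quantile normalization) in R 4.3.3, with Benjamini-Hochberg adjustment over all of them. The fit was repeated with TMM normalization, with DESeq2 1.42.0, with the quasi-likelihood test of edgeR, without a filter, on genes averaging 1 CPM or more, with sample quality weights, with a replicate block, with replicate 3 as a batch, with each library left out and, chosen after seeing the data, on replicates 1 and 2 alone. CPM is a count scaled to the library total. The script for the fit was tested on simulated data. Ratios within a library were compared by two-sided exact permutation tests over mice.

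Named were all members, the 3 genes of each list with the smallest p (and any called), and tested protein-coding genes within 250 kb of Psmb8. Irf1, Prkcsh, Uggt1, the dendritic cell markers and the genes overlapping members were named after their values were seen. Positions and exon lengths are from Gencode M39 on GRCm39, which held 78263 of 78275 identifiers. Promoters were scanned 3 times: first at M39 starts, then with other IRF letters, then in the RefSeq windows printed here. The X2 to Y spacing was noticed in these promoters before it was counted elsewhere. Precision rests on 3 mice per group, which nothing in the labels ties to a shared litter or day.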

Additional observations from a re-analysis of the deposited data

How the results depend on the processing

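The number of members called stayed at 0 under every setting but DESeq2, where it was 1 (Tapbp, adjusted p = 0.0431), and no gene of the 5 pathway lists was called by limma-voom under any alternative normalization, filter or subset, by edgeR or by DESeq2. Over all genes tested, 22 were called, 14 with edgeR, 125 with DESeq2, 42 with replicate 3 as a batch, 71 in replicates 1 and 2 alone, 4 when a 2-fold change and an adjusted p below 0.01 were both required, and 1380 at an unadjusted p below 0.05. With each library left out the number ran from 1 (without WT replicate 1) to 37 (without WT replicate 3). The replicate block gave 21 genes, 0 members and an adjusted p of 0.185 for Tapbp. Same-numbered libraries deviated together with correlations of 0.139, 0.0255 and 0.332 across genes, and differently numbered ones with -0.2985 to 0.2443. The highest value was that of the replicate 3 libraries. These few correlations cannot decide whether the numbers pair the mice, and no pairing is named in the labels.

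Some members changed sign. B2m was -0.06 with TMM normalization, -0.05 with edgeR and -0.04 with DESeq2. Nlrc5 was 0.01, 0.01 and 0.02 and Calr 0.03, 0.04 and 0.04 under the same 3 settings, and Calr was 0.00 with no filter, 0.05 with sample quality weights and 0.07 in replicates 1 and 2 alone. With each library left out, Tap1 ran from -0.05 to 0.05, Tapbpl from -0.04 to 0.07, Nlrc5 from -0.11 to 0.05 and Calr from -0.07 to 0.06, and without a change of sign H2-K1 ran from 0.06 to 0.26, H2-D1 from 0.08 to 0.25, Tap2 from 0.06 to 0.20 and B2m from 0.01 to 0.25. Without WT replicate 3, Tap2 was 0.16, B2m 0.14, Erap1 0.10, Tap1 0.04, Tapbpl -0.04 and Calr 0.01. The causes of these shifts were not tested. Tapbp, Erap1, Tap2, H2-K1 and H2-D1 stayed above 0 in all of these settings. With 3 mice per group the 95% intervals of the members still allow changes of up to 1.5-fold (Tapbp) or 1.33-fold (H2-K1 and B2m), and values scaled to the library total would not show a shift common to most genes.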
